A study of Mus musculus with 10 samples.

Results

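The myostatin and activin pathway was followed in wasting muscle through 10 genes. They were chosen by name for their place in the pathway, with earlier results of these data already known. The ligand genes were Mstn and Inhba, and the receptor genes were Acvr2a, Acvr2b and Acvr1b. The follistatin-type genes were Fst, Fstl1 and Fstl3, and the signal-transducer genes were Smad3 and Smad7. All 10 were found among the 39179 gene identifiers in the files. RNA was read from the tibialis anterior (TA), a fast muscle of the lower leg, in 4 Control mice injected with saline (PBS) and 6 mice (LLC) carrying tumors of Lewis Lung Carcinoma, a mouse lung cancer line, with 1 library of read counts per mouse. The LLC mice received 750000 tumor cells in each flank. The sample labels give C57BL/6J mice of 10 weeks and 23 days of tumor development, whereas the description of the series gives C57BL/10 males of 8 weeks and 22 days, so strain, age and time are uncertain for both groups. The model is limited to a single injected cell line, no genetic change was made in the mice, and the LLC libraries come from animals that survived to collection.

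Myostatin, made mainly by muscle fibers, and the activins are secreted ligands of the TGF-β superfamily that restrain muscle growth. They bind type II receptors (ACVR2A and ACVR2B), which engage type I receptors such as ACVR1B, also known as ALK4, and SMAD2 and SMAD3 are then phosphorylated and act in the nucleus together with SMAD4. Follistatin and FSTL3 trap the ligands outside the cell, and SMAD7 damps the signal inside it. Loss of myostatin enlarges muscle, and excess activin wastes it.

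The promoters of the ligand gene Mstn and the receptor gene Acvr2a are shown as opposite ends of base composition among the members examined. These genes also open the pathway at the muscle cell surface. Each is the stretch of 250 bases that ends at the base before the annotated gene start, from RefSeq on build GRCm38.p6, plus strand, 5′ to 3′, at chr1:53061390-53061639 for Mstn and chr2:48813859-48814108 for Acvr2a. Capitals mark every match, on either strand, to CAGAC (a core bound by SMAD proteins), CANNTG (the E-box of myogenic factors), TATAAA (the box of many core promoters) and TGTTTAC (a FoxO motif), and no match overlaps another.

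Mstn: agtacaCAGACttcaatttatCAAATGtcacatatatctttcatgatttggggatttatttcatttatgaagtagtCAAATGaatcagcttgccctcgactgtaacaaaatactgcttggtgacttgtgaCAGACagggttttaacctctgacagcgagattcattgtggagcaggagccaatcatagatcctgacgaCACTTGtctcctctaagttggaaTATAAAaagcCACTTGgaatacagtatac

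Acvr2a: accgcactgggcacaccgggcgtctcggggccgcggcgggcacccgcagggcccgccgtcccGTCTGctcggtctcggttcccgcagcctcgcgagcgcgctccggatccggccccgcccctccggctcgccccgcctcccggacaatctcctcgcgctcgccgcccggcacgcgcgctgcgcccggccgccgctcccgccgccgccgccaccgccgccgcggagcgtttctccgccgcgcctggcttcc

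The Mstn promoter held 3 CG pairs, 2 CAGAC matches beginning at positions -244 and -120, 4 E-boxes at -229, -174, -52 and -19, and a TATA box at -29, where -1 is the last base before the gene. The Acvr2a promoter held 49 CG pairs, against a median of 6 over all promoters, and a single motif match, a CAGAC read on the other strand at -188. Among the 8 members whose promoter was examined, CAGAC was found in 4, CANNTG in 3, TATAAA in 3 and TGTTTAC in 0. Over all 32851 promoters of the same length, the shares with a match were 42.2%, 66.2%, 12.4% and 3.17%, in the same order. Fst had no entry, and Smad7, on chromosome 18, was left out of this search. These matches describe the letters of the windows and nothing else.

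Total counts per sample ranged from 16693209 to 21303084 and were lower in LLC, at 18053293 ± 1216717 (SD, n = 6), than in Control, at 20072263 ± 943898 (SD, n = 4; exact permutation test, two-sided, p = 0.0381, smallest possible 0.00952). LLC 1 stood apart from its group, at a distance of 77.0 from the group centroid in log2 expression, against 29.0 to 40.2 for the other LLC samples. Its values are therefore given separately where a result rests on them. The 8 myofiber markers (Ckm, Acta1 and others) summed to 114360 to 121981 CPM (counts scaled by TMM factors to a common library total) in Control and 75540 to 129468 in LLC, with LLC 1 the lowest and 0 of 8 past the threshold, so the muscle label is met. In a whole-muscle sample, fewer cells of a type and less RNA per cell cannot be told apart.

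A gene was counted as past the threshold when its difference reached 1.5-fold and edgeR's quasi-likelihood test gave p of 0.05 or less after Benjamini-Hochberg adjustment over all 12690 tested genes. Of the 10 members, 8 were tested, and Inhba and Fstl3 had too few reads. Past the threshold were 2 of the 8, both follistatin-type genes and both lower in LLC (Fst and Fstl1), beside 5.63% of all tested genes in either direction, 3.99% lower and 1.65% higher. No tested ligand, receptor or SMAD member passed it. The groups did not overlap for 3 of the 8 (Acvr2a higher, Fst and Fstl1 lower), beside 16.0% of all tested genes, and the same 3 had an unadjusted p of 0.05 or less, beside 27.4%. DESeq2, the tool of the study, called the same 2 members, beside 8.29% of all tested genes. The median log2 fold change (LLC over Control) was 0.04 over the 8 members and 0.0019 over all tested genes.

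**Figure D1:**
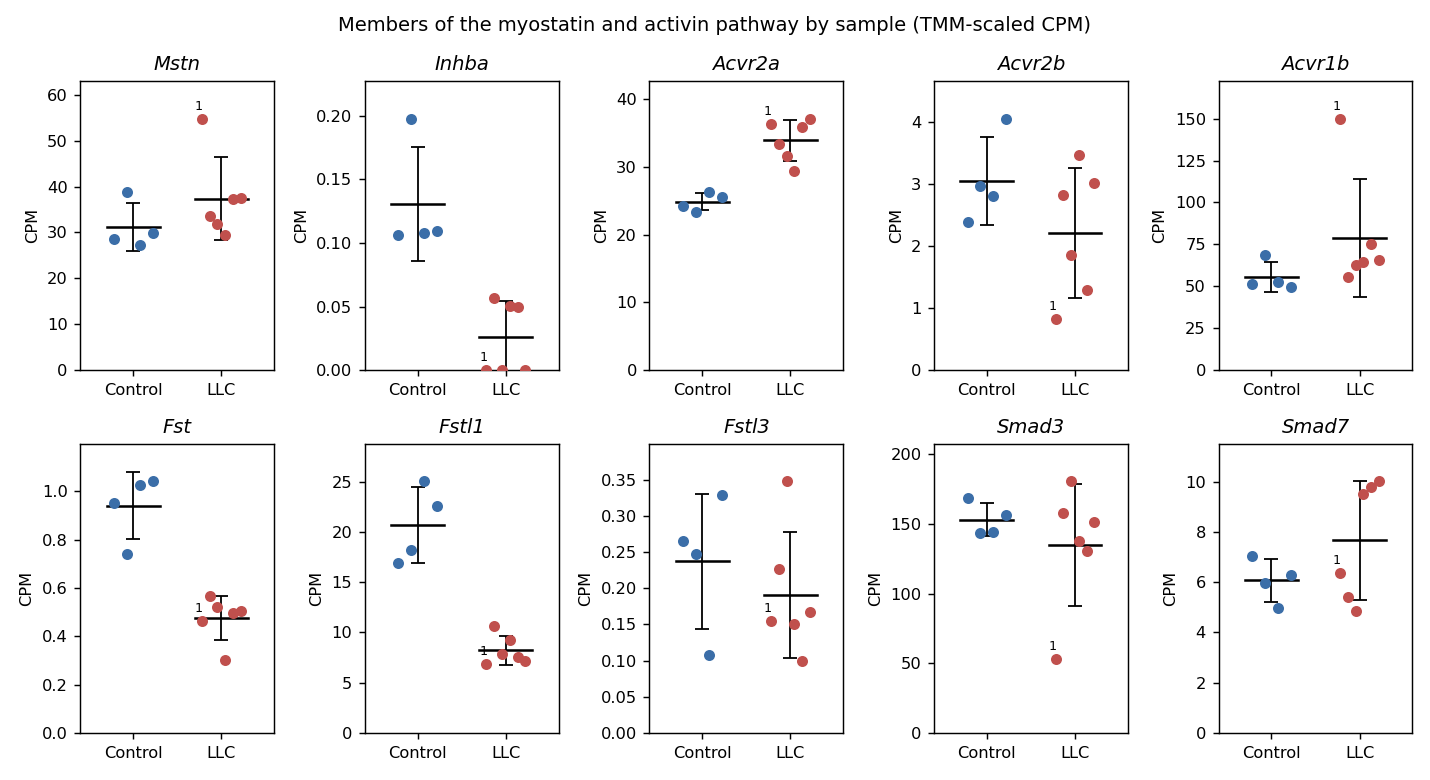
Level of each of the 10 members in every sample, in TMM-scaled CPM on linear axes that start at 0, with Control in blue (n = 4) and LLC in red (n = 6). Horizontal lines are group means, bars are 1 SD, and the digit 1 marks LLC 1. Fst and Fstl1 sit lower in all 6 LLC samples, Acvr2a sits higher in all 6, and LLC 1 lies far from the other LLC samples for Mstn, Acvr1b and Smad3.

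Mstn (ENSMUSG00000026100, GRCm38 chr1:53061640-53068079, plus strand), which encodes myostatin, did not change beyond the spread between animals. Its level was 28.5, 38.9, 27.3 and 30.0 CPM in Control 1 to 4, and 54.8, 33.7, 31.7, 29.5, 37.3 and 37.5 CPM in LLC 1 to 6. The groups overlapped, and only LLC 1 lay above every Control sample. edgeR's quasi-likelihood fit gave it a log2 fold change of 0.26 ± 0.17 (SE), with a 95% interval of -0.11 to 0.64 and an adjusted p of 0.327. Without LLC 1 it was 0.13, with an adjusted p of 0.471. The 95% interval thus spans a small fall and a rise, so neither direction was resolved with these animals.

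Inhba (chr13:16011851-16031621, plus strand), the gene of the activin A subunit, was close to the limit of detection. It had 2, 4, 2 and 2 reads in Control 1 to 4 and 0, 1, 0, 1, 1 and 0 in LLC 1 to 6, or 10 reads in all against 3. A floor of 3 reads corresponds to 0.141 to 0.180 CPM at this depth, so only Control 2 exceeded it, and no fold is given. Every LLC value lay below every Control value, but with no filter on low counts the adjusted p was 0.124 (edgeR's quasi-likelihood test, 21983 genes). Counting intervals and floors cover counting error only.

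Of the 3 receptor genes among the members, Acvr2a (chr2:48814109-48903269, plus strand), a type II receptor of both ligands, was the only one whose groups did not overlap. It had 24.3, 23.4, 26.2 and 25.6 CPM in Control 1 to 4 and 36.3, 33.3, 31.6, 29.3, 35.8 and 37.1 CPM in LLC 1 to 6. Every LLC sample lay above every Control sample, and within LLC its spread was small, with a coefficient of variation of 8.95%. The log2 fold change was 0.45 ± 0.09 (SE; 95% interval 0.25 to 0.65), a 1.36-fold difference (adjusted p = 0.0133, edgeR's quasi-likelihood test), and it missed the threshold on size alone. The adjusted p rose to 0.0544 without Control 1 and 0.0542 without Control 2. Of its 5686 exonic bases, 446 are overlapped by the antisense gene Orc4, at 14.7 CPM in Control and 15.7 CPM in LLC (adjusted p = 0.657, edgeR). The counting is described as HTSeq at its default, which uses strand, but the files differ from that description in their gene identifiers.

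Acvr2b (chr9:119402118-119434995, plus strand), the other type II receptor of myostatin, was low and variable. Control 1 to 4 had 2.38, 2.96, 2.81 and 4.05 CPM, and LLC 1 to 6 had 0.823, 2.82, 1.85, 3.48, 1.29 and 3.02 CPM. LLC 1, 3 and 5 lay below all Control samples and the other LLC samples did not, so the groups overlapped. Its log2 fold change was -0.46 ± 0.34 (SE; 95% interval -1.20 to 0.27, adjusted p = 0.377, edgeR's quasi-likelihood test). The SD of its log2 level within LLC was larger than that of 94.8% of the tested genes, whereas that of Acvr2a was larger than that of only 10.9%. Per length of exon, Acvr2a exceeded Acvr2b 4.36- to 7.03-fold in the Control samples, and in LLC 1 to 6 the ratio was 30.4, 8.15, 11.8, 5.83, 19.2 and 8.48.

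Acvr1b (chr15:101174067-101213684, plus strand), a type I receptor that carries the signal of activin and myostatin, had 51.2, 68.7, 52.3 and 49.4 CPM in Control 1 to 4. In LLC 1 to 6 it had 149.9, 55.6, 62.6, 64.8, 75.3 and 65.5 CPM. LLC 1 was far above the rest, LLC 5 was the only other sample above all Control samples, and the groups overlapped. The log2 fold change of 0.51 ± 0.26 (SE; 95% interval -0.05 to 1.08, adjusted p = 0.217, edgeR's quasi-likelihood test) fell to 0.23 without LLC 1 (adjusted p = 0.175).

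**Figure D2:**
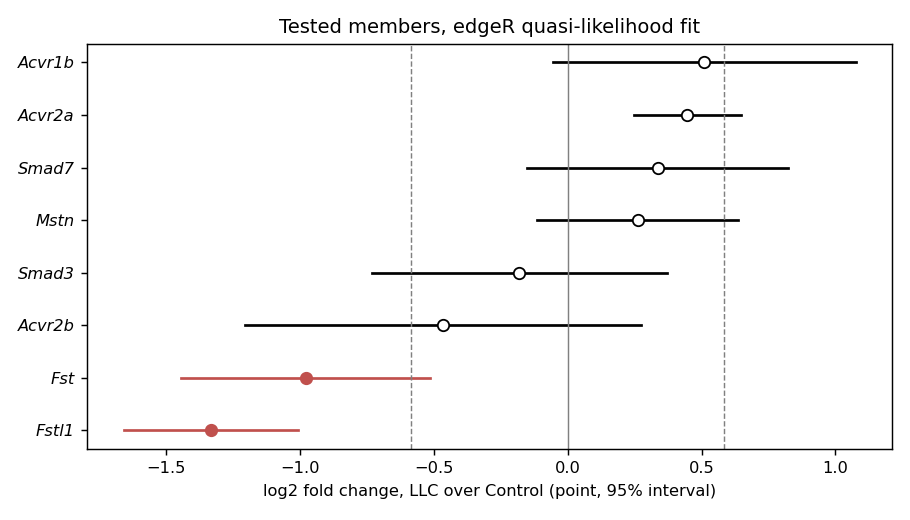
Log2 fold change (LLC over Control) of the 8 tested members, with the point estimate and 95% interval of edgeR's quasi-likelihood fit. Filled red points are past the threshold, open points are not, and dashed lines mark 1.5-fold in each direction. The intervals of Fst and Fstl1 lie wholly below 0, that of Acvr2a lies wholly above 0, and the other 5 include 0.

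Fstl1 (ENSMUSG00000022816, chr16:37776873-37836514, plus strand) showed the clearest difference among the members. It encodes a secreted glycoprotein named for its likeness to follistatin and is not established as an inhibitor of myostatin. It had 16.9, 18.2, 25.0 and 22.6 CPM in Control 1 to 4 and 6.89, 10.6, 7.82, 9.27, 7.54 and 7.16 CPM in LLC 1 to 6. The highest LLC sample was well below the lowest Control sample. By edgeR's quasi-likelihood test it was 2.52-fold lower (log2 fold change -1.33 ± 0.15, SE; 95% interval -1.66 to -1.01; adjusted p = 0.000414). The call held in 19 of 19 alternatives, with an adjusted p of 0.000209 to 0.00285 when each sample was left out in turn.

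Fst (ENSMUSG00000021765, chr13:114452290-114458951, minus strand), which encodes follistatin, the best known inhibitor of myostatin and activin, was also lower. Its level was 0.953, 0.741, 1.03 and 1.04 CPM in Control 1 to 4 and 0.463, 0.565, 0.521, 0.302, 0.496 and 0.503 CPM in LLC 1 to 6. These values rest on 15 to 19 reads per Control sample and 6 to 10 per LLC sample, all above the floor, and the groups did not overlap. This was a 1.97-fold lower level (log2 fold change -0.98 ± 0.21, SE; 95% interval -1.44 to -0.51), and the adjusted p was 0.0189 by edgeR's quasi-likelihood test and 0.0305 by DESeq2. The call was lost without Control 1 (adjusted p = 0.0609), Control 3 (0.068) or Control 4 (0.0687), with a fold change of -0.97, -0.93 and -0.93 on the log2 scale. An antisense gene, Gm47040, which was not among the counted genes, overlaps 115 of the 4589 exonic bases of Fst.

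Fstl3 (chr10:79777272-79782630, plus strand), the follistatin-like inhibitor that also binds activin and myostatin, had 5, 5, 2 and 6 reads in Control 1 to 4 and 3, 4, 6, 3, 2 and 3 reads in LLC 1 to 6. The groups overlapped, and with no filter on low counts the adjusted p was 0.693 (edgeR's quasi-likelihood test). The antisense gene Prss57 overlaps 1157 of its 2445 exonic bases, and was itself at 0.0269 CPM in Control and 0.0178 CPM in LLC.

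Several cell type markers also differed between the groups. Of 10 markers of fibro-adipogenic progenitors, the connective-tissue cells of muscle, 8 were lower and 1 (Ly6a) was higher, and their summed level was 356 to 429 CPM in Control and 180 to 243 CPM in LLC, with no overlap. The largest part of that sum came from Gsn, a gene of many cell types (232 CPM in Control and 80.8 CPM in LLC), and Pdgfra, the usual marker of these cells, was 6.01 CPM in Control and 2.27 CPM in LLC (adjusted p = 0.000184, edgeR). Tendon markers fell in 3 of 4 tested genes (summed 61.9 to 68.6 CPM in Control and 8.90 to 28.9 CPM in LLC). Neutrophil markers rose in 7 of 7 tested genes, from a summed 0.689 to 2.02 CPM in Control to 32.8 to 70.9 CPM in LLC. Their Control means were only 0.0123 CPM (Retnlg) to 0.382 CPM (S100a9). They passed the low-count filter through their LLC values, so a rise in every tested gene was largely set by that filter. Ly6g was too low to be tested. No marker was at 0 in every sample, and the part of these cells in the levels of Fst and Fstl1 was not tested.

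**Figure D3:**
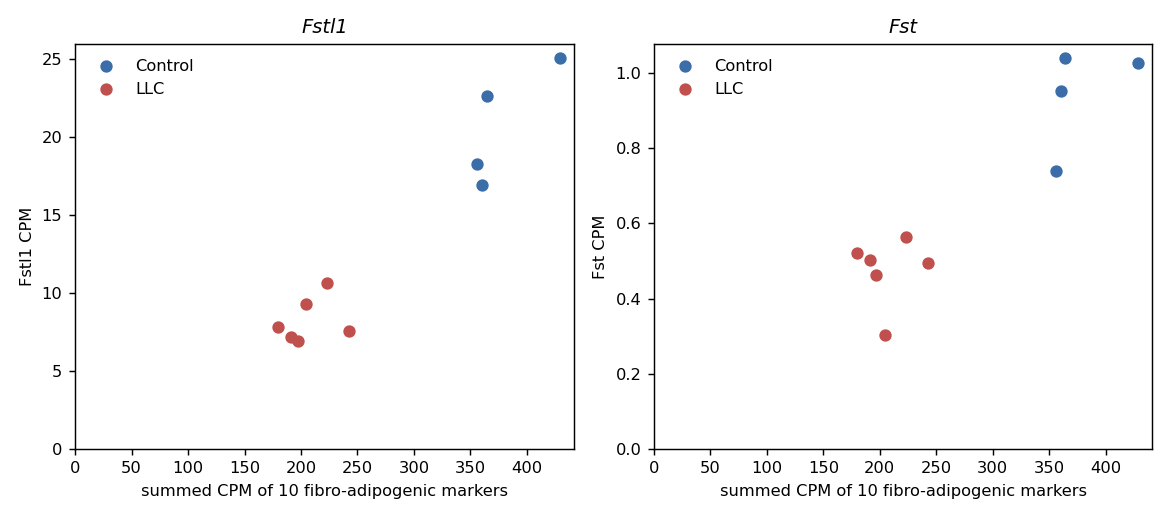
Level of Fstl1 (left) and Fst (right) in each sample, in TMM-scaled CPM, against the summed CPM of 10 markers of fibro-adipogenic progenitors, with Control in blue (n = 4) and LLC in red (n = 6). The marker sum is 356 to 429 CPM in Control and 180 to 243 CPM in LLC, and on both axes the groups are separate.

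The remaining markers moved less uniformly. Satellite cell markers were lower in 2 of 5 (Pax7 and Myf5), macrophage markers in 1 of 7 (Mrc1), endothelial markers in 1 of 6 (Kdr) and adipocyte markers in 0 of 2, with none of these higher. The summed macrophage level was 24.9 to 38.0 CPM in Control and 21.5 to 38.8 CPM in LLC, so the groups overlapped there.

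Smad3 (chr9:63646767-63757994, minus strand), the transducer that carries the ligands' signal to the nucleus, had 168.6, 143.3, 144.5 and 156.2 CPM in Control 1 to 4. LLC 1 to 6 had 53.0, 158.1, 180.5, 137.5, 130.3 and 151.2 CPM. LLC 1 had less than any other sample, and the other 5 lay on both sides of the Control values. The log2 fold change was -0.18 ± 0.25 (SE; 95% interval -0.73 to 0.37, adjusted p = 0.655, edgeR's quasi-likelihood test), and it was -0.0083 without LLC 1. With limma voom, which weights samples by their quality, it was 0.0026, so its direction is not settled.

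Smad7 (chr18:75367529-75395935, plus strand), the inhibitory SMAD that TGF-β family signals themselves induce, had 7.04, 5.98, 4.98 and 6.30 CPM in Control 1 to 4 and 6.38, 5.42, 4.87, 9.52, 9.77 and 10.0 CPM in LLC 1 to 6. LLC 4, 5 and 6 lay above every Control sample, and LLC 1, 2 and 3 did not. For the group as a whole the log2 fold change was 0.34 ± 0.22 (SE; 95% interval -0.15 to 0.82, adjusted p = 0.332, edgeR's quasi-likelihood test).

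**Figure D4:**
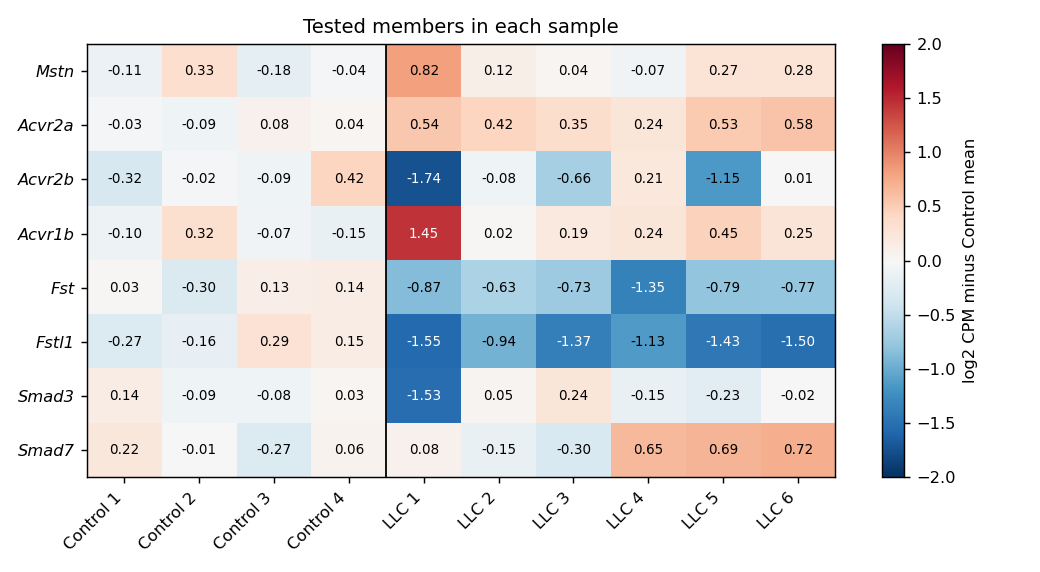
Log2 CPM of the 8 tested members in each sample minus the Control mean of that gene, with each cell's value printed and red for higher and blue for lower. The rows of Fst and Fstl1 are negative in all 6 LLC columns and that of Acvr2a is positive in all 6. LLC 1 has 1.45 for Acvr1b, -1.53 for Smad3 and -1.74 for Acvr2b.

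LLC 1 held the highest or the lowest LLC value for 5 of the 8 tested members (62.5%), a share near the 66.1% found over all tested genes. Compared per kilobase of exon (RPKM), the order of the members in Control was Smad3 (27.6 RPKM), Acvr1b (12.5), Mstn (11.5), Acvr2a (4.37), Fstl1 (4.21), Smad7 (1.34), Acvr2b (0.777), Fst (0.205), Fstl3 (0.0970) and Inhba (0.0204). Neighbors whose Control samples overlapped were Acvr1b with Mstn and Acvr2a with Fstl1. In LLC, Acvr2a (5.96 RPKM) and Fstl1 (1.67 RPKM) no longer overlapped, and Fstl1 instead overlapped Smad7 (1.69 RPKM). Smad3 (24.4 RPKM), Acvr1b (17.9 RPKM) and Mstn (13.8 RPKM) overlapped as neighbors in LLC, as did Fst (0.104 RPKM) and Fstl3 (0.0781 RPKM). The overlap of Smad3 with Acvr1b rested on LLC 1 alone, which held the lowest Smad3 (9.56 RPKM) and the highest Acvr1b (33.9 RPKM).

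The genes whose profile over the 10 samples was nearest to that of a member were found by the root-mean-square distance of log2 CPM, each taken from its Control mean, among genes with an average log2 CPM of at least 1. For Fstl1 they were Bmp1 (distance 0.114), which cuts procollagens and frees latent myostatin, Smoc2 (0.179) and Hmcn2 (0.197), both matrix proteins. For Fst they were Ndufa4l2 (0.163), Lhfp (0.179) and Rftn1 (0.213), and for Mstn they included Ercc4 (0.0991) and Rb1cc1 (0.102).

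Around the members, 84 other genes of the pathway and of the related TGF-β and BMP branches were in the files, and 65 were tested. Past the threshold were 15 of the 65 (23.1%), 6 higher and 9 lower, beside 5.63% of all tested genes, and 20 of the 65 had groups that did not overlap, beside 16.0%. Their median log2 fold change was -0.04. DESeq2 called 19 of the 65, beside 8.29% of all tested genes. Some of these genes (Fmod, Fbxo32, Trim63, Tll1 and Myog among them) were already known from these data to differ, so the list is not independent evidence.

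**Figure D5:**
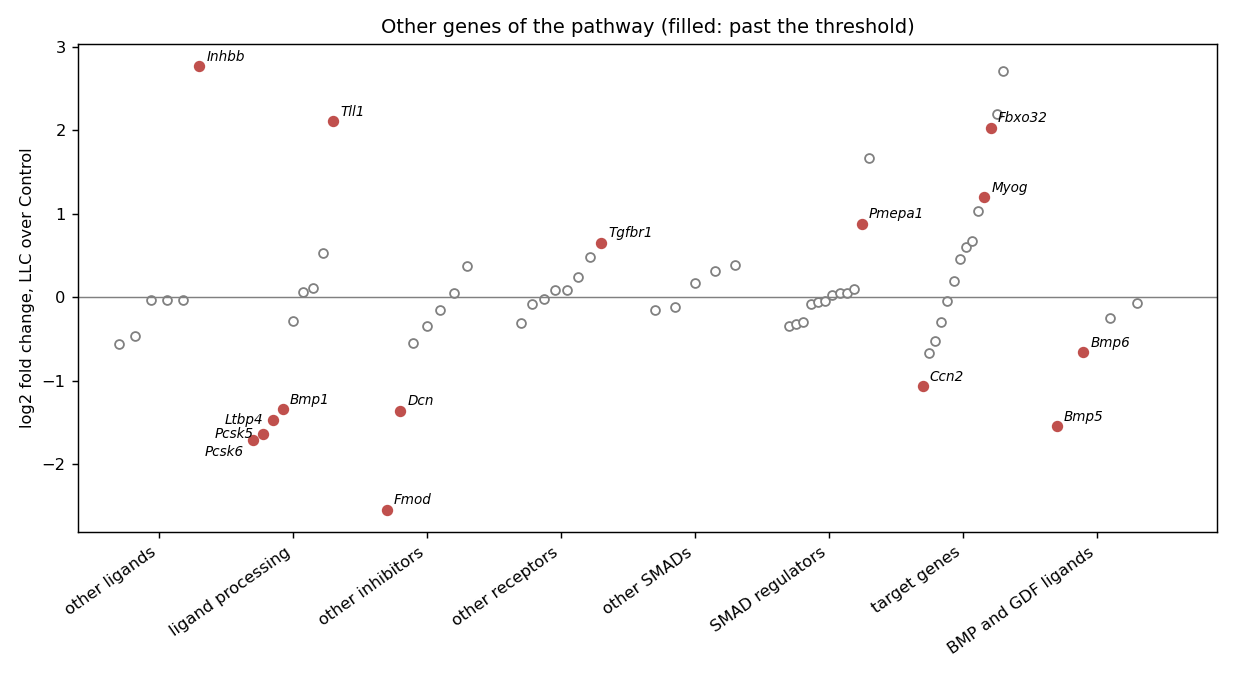
Log2 fold change (LLC over Control) of the 65 other tested genes of the pathway, grouped by role along the horizontal axis and sorted within each group. Filled red points with names are past the threshold and open points are not. Filled points lie on both sides of 0, with 4 of the 9 lower genes among the ligand-processing genes.

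Of 6 other ligand genes tested, 1 was higher and 0 were lower. Inhbb, the gene of the activin B subunit, had 0.477, 0.395, 0.595 and 0.767 CPM in Control 1 to 4 and 4.53, 1.86, 1.04, 2.12, 9.57 and 3.63 CPM in LLC 1 to 6. All 6 LLC samples were above all Control samples, and Inhbb needed its LLC values to pass the low-count filter. Its log2 fold change was 2.77 ± 0.62 (SE, adjusted p = 0.0216, edgeR's quasi-likelihood test), and the adjusted p was 0.0552 to 0.0735 without any 1 of Control 1, 2, 3 or 4. With limma voom and sample quality weights the log2 fold change of Inhbb was 1.90. Gdf11, the closest relative of Mstn, and Tgfb1 were looked at after their values were seen. Gdf11 had a log2 fold change of -0.04 ± 0.34 (adjusted p = 0.949, edgeR), and Tgfb1 one of -0.56 ± 0.14 (adjusted p = 0.0331, edgeR), under 1.5-fold.

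Ligand processing held the largest number of calls, with 4 of 9 tested genes lower and 1 higher. Bmp1 was 10.9 ± 1.21 CPM in Control (SD, n = 4) and 4.29 ± 0.638 CPM in LLC (SD, n = 6), and it fell by 1.35 ± 0.13 on the log2 scale (SE, adjusted p = 0.000184, edgeR's quasi-likelihood test). Tll1, a protease of the same family that also activates latent myostatin, moved the other way, by 2.11 ± 0.35 on the log2 scale (adjusted p = 0.00443, edgeR), from 0.318 ± 0.121 to 1.38 ± 0.489 CPM. Its Control values of 0.159 to 0.438 CPM were low, with Control 1 near the floor of 3 reads (0.141 to 0.180 CPM). Tll1 thus passed the low-count filter through its LLC values. Ltbp4, which anchors latent TGF-β in the matrix, had a log2 fold change of -1.47 ± 0.20, and the proprotein convertase genes Pcsk6 and Pcsk5 had -1.71 ± 0.30 and -1.64 ± 0.40 (adjusted p = 0.00107, 0.00592 and 0.0312, edgeR). The Pcsk5 call was lost without Control 1, 3 or 4 or LLC 2, 3 or 5, with an adjusted p of 0.0516 to 0.114. Pcsk5 was also low, at 0.593 to 1.19 CPM in Control and 0.0992 to 0.503 CPM in LLC. LLC 3 and LLC 5, at 0.116 and 0.0992 CPM, lay below the floor. Other convertase genes, named after their values were seen, did not fall. Furin was 34.7 CPM in Control and 50.2 CPM in LLC, with every LLC sample above every Control sample. Its log2 fold change was 0.53 ± 0.15, under 1.5-fold (adjusted p = 0.0511, edgeR, and 0.0132, DESeq2). For Pcsk7 it was 0.06 ± 0.09 (adjusted p = 0.661, edgeR).

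Among 7 other genes listed as inhibitors or binding proteins, 2 were lower and 0 higher. Dcn (decorin, a matrix proteoglycan that can bind myostatin and TGF-β) fell by 1.36 ± 0.12 on the log2 scale (adjusted p = 0.000184, edgeR's quasi-likelihood test), from 105.5 ± 9.76 to 41.0 ± 6.46 CPM. Fmod (fibromodulin, a related proteoglycan that is also on the tendon list) fell by 2.55 ± 0.13 (adjusted p = 2.29e-06, edgeR). Both are matrix genes of connective-tissue cells, and most markers of those cells were lower in the same samples as given above. Fmod is itself 1 of those tendon markers, and the part of these cells in either fall was not tested. Wfikkn2, a binding protein of myostatin named here after its value was seen, had a log2 fold change of 0.05 ± 0.08 (adjusted p = 0.692, edgeR).

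Of 8 other receptor genes, 1 was higher and 0 lower. Tgfbr1, the type I receptor of TGF-β, was 24.1 ± 2.15 CPM in Control and 37.9 ± 10.5 CPM in LLC, a log2 fold change of 0.65 ± 0.18 (adjusted p = 0.0478, edgeR's quasi-likelihood test), and every LLC sample lay above every Control sample. This call was lost without any 1 of Control 1, 2, 3 or 4 or LLC 2, 5 or 6 (adjusted p = 0.0563 to 0.149), and without LLC 1 the change was under 1.5-fold (0.50 on the log2 scale). No call was made among the 5 other SMAD genes tested with edgeR (2 at an unadjusted p of 0.05 or less, 0 by DESeq2). Of 12 SMAD regulators, 1 was higher and 0 lower by edgeR. This was Pmepa1, a TGF-β-induced brake on SMAD signaling, with 0.88 ± 0.23 (adjusted p = 0.0422, edgeR). Its call was lost without any 1 of Control 1, 2, 3 or 4 or LLC 5 or 6 (adjusted p = 0.0601 to 0.122). DESeq2 called 2 of the 12, adding Tgif1, named after its values were seen. Tgif1 had 3.21 to 4.93 CPM in Control and 5.04 to 27.2 CPM in LLC, highest in LLC 1. Its log2 fold change was 1.67 ± 0.53 (adjusted p = 0.0792, edgeR, and 0.00767, DESeq2).

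Of 14 genes known as targets of these signals or of atrophy, 2 were higher and 1 lower by edgeR. DESeq2 called 6 of the 14, adding Trim63, Cdkn1a and Atoh8. Fbxo32, an atrophy ubiquitin ligase, rose by 2.03 ± 0.49 on the log2 scale (adjusted p = 0.0307, edgeR's quasi-likelihood test), a call lost without any 1 of Control 1, 2, 3 or 4 or LLC 5 (adjusted p = 0.0667 to 0.098), and its log2 fold change was 1.25 with limma voom. Myog, a myogenic regulator, rose by 1.19 ± 0.19 (adjusted p = 0.00336), with 1.11 to 2.03 CPM in Control and 2.97 to 4.63 CPM in LLC. Ccn2, a matrix gene induced by TGF-β, fell by 1.07 ± 0.23 (adjusted p = 0.0185), and the adjusted p was 0.0732 without Control 3 and 0.0617 without Control 4. Cdkn1a, a cell cycle inhibitor named after its values were seen, had 246.4 CPM in LLC 1 and 10.2 to 45.2 CPM in the other LLC samples, against 5.68 to 11.95 CPM in Control (adjusted p = 0.0758, edgeR, and 0.0155, DESeq2). Trim63, another atrophy ubiquitin ligase named after its values were seen, had 156.7 to 195.0 CPM in Control. In LLC it had 211.1 to 2528.7 CPM, highest in LLC 1. Its log2 fold change was 2.19 ± 0.66 (adjusted p = 0.0718, edgeR, and 0.0197, DESeq2).

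Of 4 tested ligands of the BMP branch, which opposes myostatin in muscle, 2 were lower and 0 higher. Bmp5 was 1.58 ± 0.272 CPM in Control and 0.540 ± 0.194 CPM in LLC, and it fell by 1.55 ± 0.25 on the log2 scale (adjusted p = 0.00333, edgeR's quasi-likelihood test). Bmp6 fell by 0.66 ± 0.13 (adjusted p = 0.0126, edgeR), and the adjusted p was 0.0517 without Control 1. Antisense genes overlap exons of Bmp5, Bmp6, Ccn2, Fbxo32, Cdkn1a, Furin and Pcsk7 (by 1878, 224, 665, 186, 273, 118 and 523 bases). The counts of these genes are uncertain if strand was not used. Pcsk6 shares 156 exonic bases with a gene on its own strand.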

How the data were processed

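Gene counts were measured in TA muscle of 4 Control and 6 LLC mice. The authors extracted total RNA, made stranded libraries, sequenced paired reads of 100 bases in 1 lane, aligned them to mm10 with TopHat2 and counted them with HTSeq, and the deposited values are raw read counts per gene. The study's methods name RefSeq genes and HTSeq's default settings, which use strand, but the files list Ensembl identifiers, so how far that description covers these files is uncertain. Of 39179 identifiers, 37607 were given symbols, positions and exonic lengths from GENCODE M21 (GRCm38). Groups came from the sample labels, and each mouse is 1 replicate, so p-values measure the spread between mice.

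Genes were filtered by edgeR's filterByExpr (count minimum 10), scaled by TMM factors and compared in edgeR 4.0.16 (R 4.3.3) by a quasi-likelihood test on group alone, adjusted by Benjamini-Hochberg over 12690 genes. The threshold was an adjusted p of 0.05 and 1.5-fold. CPM are TMM-scaled, with a prior count of 2 on the log2 scale. The code was tested on simulated data. Alternatives were DESeq2 1.42.0, limma voom (limma 3.58.1), 2 other scalings, mitochondrial genes left out, no filter or a stricter one, other thresholds, a replicate block and each sample left out. Members and lists were chosen with earlier results of these data known. All members are named, as are other pathway genes past the threshold (at most 5 rises and 5 falls per list) and the 3 nearest profiles of Mstn, Fst and Fstl1, apart from items not reported here. Of the list symbols, Gdf1 was not matched. Small RNA libraries were not analysed here.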

Additional observations from a re-analysis of the deposited data

Results flagged for a closer look

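Within-group gaps were examined for the 10 members in both groups, 20 in all, by Dixon's ratio of the gap between an extreme sample and its nearest neighbor to the whole range of the group. In 4 of the 20 the ratio was past the 95% critical value, where chance gives about 1 in 20. Mstn in LLC had a ratio of 0.685, from LLC 1 at 54.8 CPM with the other LLC samples at 29.5 to 37.5 CPM. Acvr1b in LLC had a ratio of 0.791, again from LLC 1, at 149.9 CPM with the others at 55.6 to 75.3 CPM. In Control the ratio for Acvr1b was 0.845, from Control 2 at 68.7 CPM with the others at 49.4 to 52.3 CPM. For Inhba in Control it was 0.960, from Control 2 at 0.198 CPM with the others at 0.106 to 0.110 CPM, which is the difference between 4 reads and 2.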

How the results depend on the processing

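Fstl1 was called in 19 of 19 alternatives and Fst in 14 of 18. The count of members past the threshold (2) was 1 under a minimum of 10 counts in each sample, which removes Fst, 1 with a replicate block, and 1 to 2 when a sample was left out. For the other pathway genes the count (15) was 9 with at least 10 counts in every sample, 4 with a replicate block, and 9 to 18 when a sample was left out, with 9 without Control 3 or Control 4. Over all genes the count (715) was 475 with at least 10 counts in every sample, 1572 on unadjusted p, 112 with a replicate block, and 415 to 966 when a sample was left out (417, 438, 415 and 418 without Control 1 to 4). With no fold minimum Acvr2a was also called (3 members). The log2 fold change of Smad3 reversed to 0.0026 with limma voom. The cause of these shifts was not tested, apart from the fewer genes or samples in some of them. The replicate numbers name different animals in each group, and same-numbered samples deviated together with r of -0.03, 0.01, -0.08 and 0.13, and 1 of 4 Control samples was nearest to its own number, so they were not taken as pairs. Library scaling moved the median of all genes by at most 0.03 (log2). Low counts limit Inhba, Fst and Fstl3 among the members, and Inhbb, Tll1, Pcsk5 and Bmp5 among the other pathway genes named.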

Other observations

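Gdf5, a BMP-branch ligand, was too low to be tested and was looked at after its values were seen. It was listed at 0.0530, 0, 0 and 0.0548 CPM in Control 1 to 4, and at 2.06, 0.621, 0.116, 0.0504, 0.0992 and 0.0559 CPM in LLC 1 to 6. LLC 1 and LLC 2 were the only samples above the floor of 3 reads. The antisense gene Gm15557 overlaps 936 of the 2320 exonic bases of Gdf5.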
